A study of Mus musculus with 6 samples.

Results

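The regulatory factor X (RFX) genes and the partners of RFX5 were followed in mouse T cells treated with disulfiram (DSF). The 7 members, Rfx1, Rfx2, Rfx3, Rfx5, Rfx7, Rfxap and Rfxank, were taken by gene name from a deposited table of 55536 genes, of which 14318 were abundant enough to be tested, all 7 members among them. They were selected on the contrast described here, because Rfx2 and Rfx3 were much higher with DSF, so the members' differences between the groups are a description and carry no test. RNA was sequenced from 3 libraries of cells given DSF for 2 h and 3 libraries of cells given dimethyl sulfoxide (DMSO) for 2 h. In both groups the cells were primary OT-I T cells from mouse lymph nodes, labelled wildtype, kept in RPMI medium with fetal bovine serum, 2-mercaptoethanol and non-essential amino acids. OT-I mice carry a T cell receptor transgene that recognises an ovalbumin peptide on a class I molecule. DSF is a thiuram disulfide given against alcohol dependence as an inhibitor of aldehyde dehydrogenases, and DMSO is a common solvent for it. The dose of DSF, any stimulation or sorting of the cells, and the age, sex and number of the mice are not given in the labels. Each library is labelled a biological replicate, but whether that means another mouse or another culture is not said, so the SDs and p-values below measure the spread between these libraries. The files mark the libraries by the codes DF and DO, taken here to stand for DSF and DMSO, and all directions depend on that.

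RFX proteins are transcription factors with a winged-helix DNA-binding domain that contacts the X-box, an inverted repeat of a short half-site. RFX1, RFX2 and RFX3 share an activation region and can form dimers, and RFX2 and RFX3 are best known as activators of genes for cilia. RFX5 binds DNA together with RFXAP and RFXANK, and that complex recruits the coactivator CIITA to the promoters of MHC class II genes and NLRC5 to those of class I genes. RFX7 is abundant in lymphoid cells and in human cells drives a set of genes that restrain growth. In the authors' annotation, Rfx1, Rfx2 and Rfx3 carry both the activation region and the RFX DNA-binding domain, Rfx5 and Rfx7 carry the DNA-binding domain, Rfxank carries ankyrin repeats and Rfxap carries the domain that contacts RFXANK.

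The promoters of the 3 members that were higher with DSF are shown because they share a stretch of letters. The windows run from 250 bases before to 50 bases after the annotated start (RefSeq, GRCm38.p6), are read 5′ to 3′ along the gene, and have the stretch in capitals.
Rfx1: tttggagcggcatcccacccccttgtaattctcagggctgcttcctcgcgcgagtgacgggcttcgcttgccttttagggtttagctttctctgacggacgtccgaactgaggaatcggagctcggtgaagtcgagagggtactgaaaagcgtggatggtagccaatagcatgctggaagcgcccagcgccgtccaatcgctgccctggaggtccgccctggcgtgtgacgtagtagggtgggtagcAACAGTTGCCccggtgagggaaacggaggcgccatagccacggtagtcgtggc
Rfx2: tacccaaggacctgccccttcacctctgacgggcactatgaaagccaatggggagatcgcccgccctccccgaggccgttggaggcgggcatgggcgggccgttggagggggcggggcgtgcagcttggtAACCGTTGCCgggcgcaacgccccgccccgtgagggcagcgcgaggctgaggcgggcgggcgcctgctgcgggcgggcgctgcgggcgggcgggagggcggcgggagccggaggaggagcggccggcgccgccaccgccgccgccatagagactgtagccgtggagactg
Rfx3: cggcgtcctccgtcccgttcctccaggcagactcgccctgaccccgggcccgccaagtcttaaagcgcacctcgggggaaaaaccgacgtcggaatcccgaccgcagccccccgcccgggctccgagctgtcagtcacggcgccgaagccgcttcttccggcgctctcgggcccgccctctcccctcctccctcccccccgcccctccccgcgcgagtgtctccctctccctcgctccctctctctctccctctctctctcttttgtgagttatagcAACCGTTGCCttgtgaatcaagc
The Rfx1 window is chr8:84066586-84066885 on the plus strand. The Rfx2 window is chr17:56830959-56831258 on the minus strand, and the Rfx3 window is chr19:28011117-28011416 on the minus strand. Each holds AACNGTTGCC, where N is any base and the last 6 letters are the X-box half-site GTTGCC. Its first 3 letters are also those that end the facing half-site GGNAAC, which in a usual X-box follows GTTNCC instead of preceding it. The stretch begins 3 bases before the start in Rfx1, 120 bases before it in Rfx2 and 27 bases after it in Rfx3. The stretch was obtained from these windows, by extending the half-site to both sides as far as all 3 hold the same letters, 1 base left free, so its presence in them is a description.

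Searched on both strands, AACNGTTGCC was found in 44 of 32851 RefSeq promoter windows of the same length (0.134%), and the half-site GTTGCC, with or without the rest, in 4111 of them (12.5%). The windows of Rfx5, Rfx7 and Rfxank held neither motif, and Rfxap is named only. Of 10140 tested genes with a window, 17 held AACNGTTGCC, and 14 of these were not members. Of those 14 genes, 3 were called higher with DSF at an adjusted p under 0.05 by edgeR (Ezr, Sinhcaf and Lrrc56) and 1 lower (Kcnq1ot1), with a median log2 fold change of 0.11. These are 21.4% and 7.14% of the 14, beside 12.6% called higher and 12.1% called lower of all tested genes with a window. Ezr, which encodes the membrane-cytoskeleton linker ezrin, had a fold change of 1.21.

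Library totals were 18082178 to 20951936 estimated counts with DSF and 18528162 to 21893653 with DMSO. CPM, the counts-per-million unit, gives these counts scaled to the library total with a correction for composition, and the floor of 3 counts in a library equals 0.136 to 0.166 CPM, counting error only. The summed level of 7 T cell markers was 1493 to 1540 CPM with DSF and 1655 to 1690 CPM with DMSO. Of these markers Cd3g, Cd8a and Trac were called lower with DSF, and Cd4 lay under 2 CPM in every library. Among 14318 tested genes, 3276 (22.9%) were called at an adjusted p under 0.05 by edgeR's quasi-likelihood test, 1655 of them (11.6%) higher and 1621 (11.3%) lower with DSF. The libraries of the groups did not overlap in 35.4% of the tested genes. In bulk RNA, fewer cells with a transcript and less of it per cell cannot be told apart.

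Rfx1, Rfx2 and Rfx3 were all higher after DSF, and the other 4 members lay close to their DMSO levels. Of the 7 members 3 were called higher and 0 lower, beside the 11.6% and 11.3% of all tested genes given above, and the libraries of the groups did not overlap in 4 members, beside 35.4%. Because these values chose the members, nothing is read from those counts.

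Rfx2, which in mice is required for sperm cell development, had the largest ratio. Its estimated counts were 280, 305 and 364 in the DSF libraries and 24, 41 and 31 in the DMSO libraries. Scaled for depth these were 15.5, 15.6 and 17.5 CPM with DSF and 1.30, 1.87 and 1.53 CPM with DMSO. Every DSF library lay far above every DMSO library, whose counts were low but well over the floor. Rfx2 averaged 16.2 ± 1.11 CPM with DSF and 1.57 ± 0.284 CPM with DMSO (SD, n = 3 each), a fitted fold change of 10.2 with a 95% interval of 8.46 to 12.4. On the log2 scale the difference was 3.35 ± 0.14 (SE).

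Rfx3, which in mice is needed for nodal cilia and for endocrine cells of the pancreas, was next. Its libraries held 71.2, 63.1 and 68.1 CPM with DSF and 15.3, 15.6 and 15.8 CPM with DMSO. The DMSO libraries were almost level, and the lowest DSF library was DSF replicate 2. The means were 67.5 ± 4.07 CPM with DSF and 15.5 ± 0.255 CPM with DMSO (SD, n = 3 each). The fitted fold change was 4.34, with a 95% interval of 3.99 to 4.71, and the log2 difference was 2.12 ± 0.06 (SE).

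Rfx1, the founding member of the family and a factor found in most tissues, was the most abundant of the 3. It reached 2544, 2749 and 3041 estimated counts in the DSF libraries and 751, 984 and 917 in the DMSO libraries. In CPM its level was 141, 141 and 146 with DSF and 40.7, 44.8 and 45.4 with DMSO. Within each group the libraries lay close together and the groups were far apart. The means were 143 ± 2.99 CPM with DSF and 43.6 ± 2.55 CPM with DMSO (SD, n = 3 each), and the fitted fold change was 3.27 with a 95% interval of 3.06 to 3.49.

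**Figure D1:**
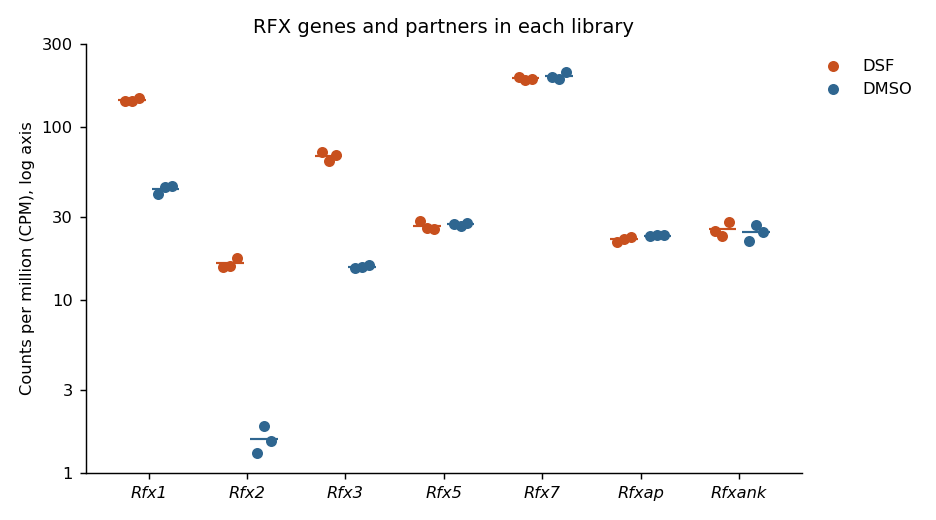
CPM in each library on a log axis for the 7 members, DSF left and DMSO right, with a point per library and a line at the mean of 3. The points of Rfx1, Rfx2 and Rfx3 lie apart between the groups, Rfx2 between 15.5 and 17.5 CPM with DSF and between 1.30 and 1.87 CPM with DMSO, while those of the other 4 genes lie at about the same height.

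The 3 subunits of the MHC complex stayed near their DMSO levels. Rfx5, its DNA-binding subunit, had 28.6, 25.9 and 25.5 CPM with DSF and 27.3, 26.8 and 27.8 CPM with DMSO. The groups overlapped, and the fitted fold change was 0.975 with a 95% interval of 0.892 to 1.07. Rfxap, the subunit that carries the RFXANK contact, had 21.6, 22.3 and 23 CPM with DSF and 23.2, 23.6 and 23.7 CPM with DMSO. All DSF libraries were below all DMSO libraries, by a small margin, with a fold change of 0.950 and an interval of 0.866 to 1.04. Rfxank, the ankyrin-repeat subunit, varied most of the 3 between replicates, at 25.1, 23.4 and 27.9 CPM with DSF and 21.7, 27.1 and 24.6 CPM with DMSO. Its fold change was 1.04, with an interval of 0.933 to 1.16, and its log2 difference lay at -0.02 without DSF replicate 3 or without DMSO replicate 1.

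Rfx7 was the member with the most counts. It had 195, 186 and 189 CPM with DSF and 193, 188 and 206 CPM with DMSO, and the groups overlapped. Its fold change was 0.972, with an interval of 0.922 to 1.02, the narrowest of the 4.

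The remaining RFX genes were scarcely detected. Rfx4 had 0, 2 and 1 counts with DSF and 0, 1 and 1 with DMSO, and Rfx6 had 1 count in a single DSF library. Rfx8 had 14, 6 and 5 counts with DSF and 9, 11 and 12 with DMSO. None of these 3 passed the filter on low counts, so none was tested.

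Levels of different genes can be compared only per transcript length, for which the authors' TPM values (a transcripts-per-million unit) were used. With DSF the order of mean TPM was Rfx1 at 43.0, Rfxap at 38.4, Rfx7 at 36.0, Rfxank at 12.4, Rfx3 at 11.1, Rfx5 at 10.8 and Rfx2 at 7.17. In that order neighbours overlapped in their libraries except Rfx7 with Rfxank and Rfx5 with Rfx2. With DMSO the order was Rfx7 at 36.0, Rfxap at 35.6, Rfx1 at 12.9, Rfxank at 11.6, Rfx5 at 9.78, Rfx3 at 2.46 and Rfx2 at 0.623. There the neighbours that did not overlap were Rfxap with Rfx1, Rfx5 with Rfx3, and Rfx3 with Rfx2.

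The top gene by mean TPM overlapped Rfxap in both conditions, so no single leading gene was resolved. Rfx1 made up 27.1% of the members' summed TPM with DSF and 11.9% with DMSO. Rfx3 made up 7.0% with DSF and 2.26% with DMSO, and Rfx2 4.52% with DSF and 0.571% with DMSO. Rfx7 made up 22.7% with DSF and 33.1% with DMSO at the same mean level in both. The SDs of the TPM means with DSF were 0.850 for Rfx1, 0.681 for Rfx2 and 0.521 for Rfx3, and with DMSO 1.12, 0.125 and 0.107 TPM (n = 3 each).

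The TPM ratios were 3.32 for Rfx1, 11.5 for Rfx2 and 4.53 for Rfx3, close to the ratios from counts. For Rfx5 and Rfxap the TPM ratios of 1.11 and 1.08 point the other way from the count ratios. The transcript length implied by a gene's count and TPM changed between libraries by up to 1.41 times for Rfxap and 1.28 times for Rfx5, and by 1.02 to 1.16 times for the other 5 members. In Rfxap it was lowest in DSF replicate 1, where its TPM was 44.4, against 32.4 and 38.3 TPM in the other DSF libraries and 35.1 to 36.4 TPM with DMSO.

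**Figure D2:**
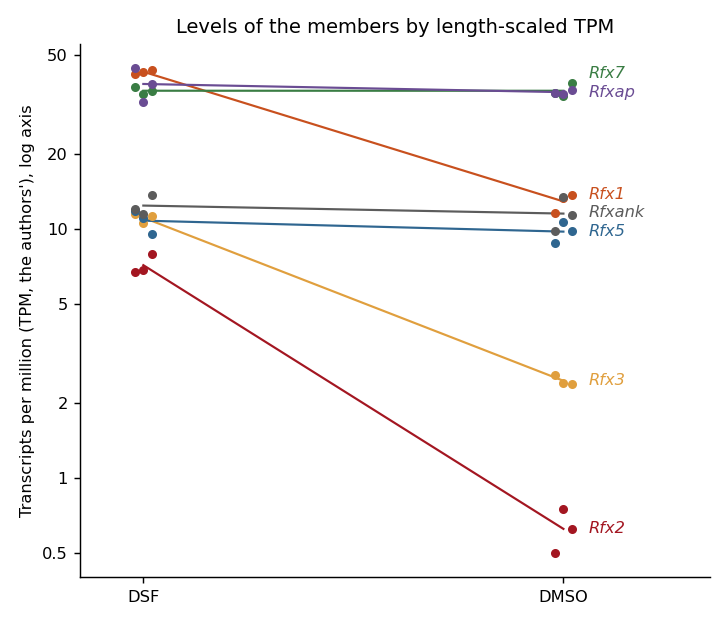
TPM of the 7 members on a log axis, DSF at the left and DMSO at the right, with a point per library and a line joining the means. Rfx1 stands at 43.0 TPM with DSF and 12.9 TPM with DMSO, Rfx2 at 7.17 TPM with DSF and 0.623 TPM with DMSO, and Rfx3 at 11.1 TPM with DSF and 2.46 TPM with DMSO, while the other 4 lines are nearly flat.

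In GRCm38 with the GENCODE M21 annotation, Rfx1 (ENSMUSG00000031706) lies on chromosome 8 at 84066834 to 84096992, Rfx2 (ENSMUSG00000024206) on chromosome 17 at 56775897 to 56831013 and Rfx3 (ENSMUSG00000040929) on chromosome 19 at 27761721 to 28011166. Rfx5 (ENSMUSG00000005774) lies on chromosome 3 at 94954075 to 94961561 and Rfxap (ENSMUSG00000036615) on the same chromosome at 54803115 to 54807791. Rfxank (ENSMUSG00000036120) lies on chromosome 8 at 70130794 to 70139154 and Rfx7 (ENSMUSG00000037674) on chromosome 9 at 72532240 to 72622937. Exons of Rfx2, Rfx3 and Rfxap share no sequence with another annotated gene. Exons of Rfx1, Rfx5, Rfx7 and Rfxank overlap a gene on the opposite strand (C330011M18Rik, B230398E01Rik, Gm27241 with Gm27232, and Nr2c2ap). Whether reads were counted by strand is not stated, so reads of such pairs cannot be told apart.

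The authors' deposited table holds 3 comparisons among groups coded DO, DF and DC. DF and DO are the libraries described so far. No label says what DC stands for, and its libraries were not analysed here. In the authors' deposited table the log2 fold changes of DC over DF were -1.70 for Rfx1, -3.17 for Rfx2 and -2.14 for Rfx3. In the same authors' deposited table those of DC over DO were 0.01 for Rfx1, 0.20 for Rfx2 and -0.02 for Rfx3. DF over DO there was 1.71, 3.36 and 2.12 for the same genes. In the authors' deposited table the other 4 members stayed between -0.11 and 0.09 in all 3 comparisons. Each pair of comparisons shares a group, so they are not independent of each other.

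**Figure D3:**
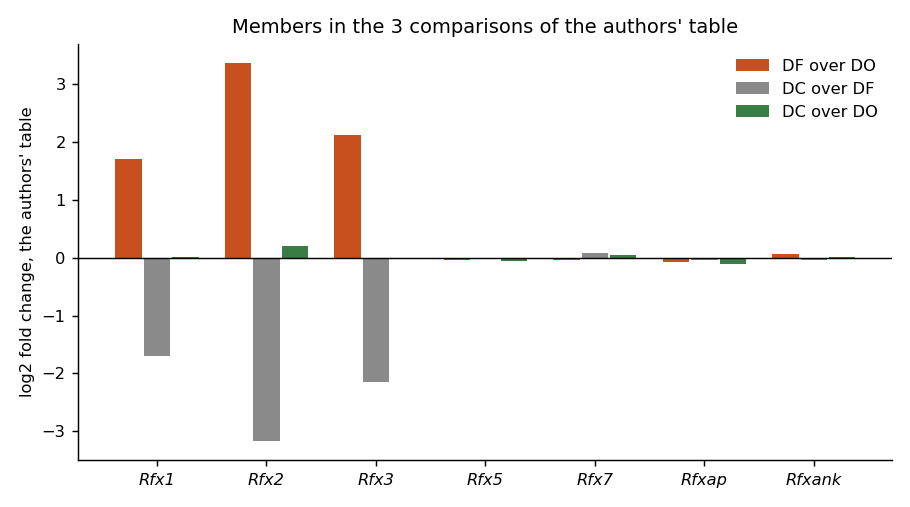
Log2 fold changes of the 7 members in the 3 comparisons of the authors' deposited table, DF over DO, DC over DF and DC over DO, which share their groups. Rfx1, Rfx2 and Rfx3 stand at 1.71, 3.36 and 2.12 in DF over DO and between -0.02 and 0.20 in DC over DO.

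The genes whose pattern over the 6 libraries was most like that of Rfx2 and Rfx3 were sought among 9587 genes of at least 5 CPM on average, by the root mean square (RMS) difference of centred log2 CPM. For Rfx2 these were Ralgds, an exchange factor for Ral GTPases, Klf4, a zinc-finger transcription factor, Ocln, which encodes a tight junction protein, Lmna, which encodes lamin A/C, and Spns2, a sphingosine-1-phosphate transporter. Their RMS differences ran from 0.245 for Ralgds to 0.398 for Spns2. For Rfx3 they were Crip2, Cobll1, Rgcc, Osr2 and Ahnak, from 0.0909 for Crip2 to 0.147 for Ahnak, which encodes a giant scaffold protein. Crip2, which encodes a LIM domain protein, averaged 29.9 ± 0.913 CPM with DSF and 7.26 ± 0.228 CPM with DMSO (SD, n = 3 each). The same search for Rfx1, made beside the rule, gave Tsc22d3, Tagap, Adgre5, Mtss1 and Arhgap5, from 0.0600 to 0.0733.

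Genes that RFX proteins are known to act on, or to act with, were then counted in 6 lists. In the lists of class II, class I, partner and motile genes, the directions with 0 calls by edgeR also had 0 genes at an unadjusted p under 0.05 and 0 calls by DESeq2. Of 11 class II genes, all tested, 1 was called higher (H2-Ob) and 0 lower, beside 11.6% and 11.3% of all tested genes, and their median log2 fold change was 0.09 beside -0.0027 for all genes. H2-Ob, which encodes a chain of the peptide-loading modulator H2-O, averaged 17.0 ± 0.446 CPM with DSF and 14.0 ± 0.795 CPM with DMSO (SD, n = 3 each; edgeR adjusted p = 0.0115). That call was lost with DESeq2 and without DSF replicate 3 or DMSO replicate 2. By the authors' TPM the ratio of H2-Ob was 1.04, and the groups overlapped. H2-Ab1, Cd74 and H2-DMa, the most abundant uncalled genes, had fold changes of 1.04, 1.03 and 1.02. The coactivator gene Ciita was at 1.39 ± 0.306 CPM with DSF and 1.69 ± 0.335 CPM with DMSO (SD, n = 3 each). Markers of B cells, in which class II genes are active, summed to 36.3 to 38.3 CPM with DSF and 34.8 to 39.1 CPM with DMSO, with 0 of the 6 tested called. Those of dendritic and myeloid cells summed to 27.7 to 28.5 CPM with DSF and 33.3 to 34.1 CPM with DMSO. Of these markers only Xcr1 was called, lower at a mean of 5.38 CPM with DSF and 10.7 CPM with DMSO. Cd14, not called, lay the other way at 3.72 CPM with DSF and 2.92 CPM with DMSO. Clec9a had at most 1 count, and Siglech was at 0 in every library. The part of such cells in the class II values was not tested.

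Of 11 class I genes 0 were called higher and 1 lower, with a median log2 fold change of -0.02. The gene called was Nlrc5, the class I coactivator that works with the RFX5 complex, at 335 ± 6.09 CPM with DSF and 408 ± 10.8 CPM with DMSO (SD, n = 3 each). Its DSF libraries held 328, 338 and 340 CPM, all below the DMSO libraries at 410.4, 397 and 418 CPM. The fold change was 0.821, with an edgeR adjusted p of 4.47e-08. The abundant H2-K1, B2m and H2-D1 had fold changes of 1.00, 0.963 and 1.02 and were not called.

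Of 10 partners on the X-box, subunits of NF-Y, CREB-type factors and cofactors, 2 were called higher and 0 lower, with a median log2 fold change of -0.0074. Ep300, an acetyltransferase gene, stood at 306 ± 11.8 CPM with DSF and 249 ± 14.9 CPM with DMSO (SD, n = 3 each), with a fold change of 1.23 and an edgeR adjusted p of 9.65e-07. Crebbp, its close relative, had a fold change of 1.10 (edgeR adjusted p = 0.0273), and that call was lost with DESeq2 and without any of DSF replicates 2 and 3 and DMSO replicates 1 and 2. Smarca4, Atf1 and Creb1 were not called and had fold changes of 0.973, 1.02 and 1.02.

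Genes of ciliary transport, a class that RFX2 and RFX3 are known to activate, were often higher with DSF, by small amounts. Of 29 intraflagellar transport and Bardet-Biedl genes, all tested, 12 (41.4%) were called higher and 0 lower, beside 11.6% and 11.3% of all tested genes. The median log2 fold change was 0.24, and the values ran from -0.30 to 0.71. By DESeq2 6 genes were called higher and 0 lower, and without DMSO replicate 2 edgeR called 7, all higher. At an unadjusted p under 0.05 edgeR counted 13 higher and 1 lower. Ift140, a subunit of transport complex A, held 53.8, 52.5 and 54.4 CPM with DSF and 37.5, 37.2 and 34.3 CPM with DMSO. Its libraries did not overlap between the groups, and its fold change was 1.47 (edgeR adjusted p = 6.37e-10). Traf3ip1 and Ift46, both of transport complex B, had fold changes of 1.46 and 1.31, and Bbs2, a BBSome subunit, one of 1.64. Bbs2 averaged 8.66 ± 0.165 CPM with DSF and 5.31 ± 1.04 CPM with DMSO (SD, n = 3 each). By the authors' TPM its ratio was 1.26, and the groups overlapped. Its values were 4.87, 4.83 and 6.19 TPM with DSF and 4.69, 5.56 and 2.41 TPM with DMSO. The abundant Ift52, Ift20 and Ttc21b had fold changes of 1.02, 1.00 and 0.981 and were not called, so genes of the same complexes differed in their values.

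Genes of the motile axoneme were mostly scarce. Of 29 genes found 16 were not tested, at no more than 13 counts in a library, so the 13 tested are not the whole list. Of these 13, 6 (46.2%) were called higher and 0 lower, beside 11.6% and 11.3% of all tested genes, and the median log2 fold change was 0.54. A gene that passes the filter because it is high in a single group had to differ, so the share among those tested is no support for the list. Spag6l, which encodes a protein of the central pair, held 2.49, 3.53 and 2.50 CPM with DSF and 0.433, 0.409 and 0.198 CPM with DMSO. These DMSO values are close to the floor, and the fitted fold change was 8.08 with a log2 SE of 0.32. By the authors' TPM the ratio was 4.05, with 1.70, 2.91 and 2.84 TPM with DSF and 1.32, 0.41 and 0.11 TPM with DMSO. Gas8, a subunit of the dynein regulatory complex, averaged 28.5 ± 1.18 CPM with DSF and 18.3 ± 0.821 CPM with DMSO (SD, n = 3 each), a fold change of 1.56. Ccdc114, a docking factor of outer dynein arms, had a fold change of 1.88 and a TPM ratio of 1.36. The radial spoke gene Rsph3a had one of 1.46 and its near copy Rsph3b, not called, one of 1.12, and reads shared by such copies make both uncertain. Dnaaf2 and Rsph9 were not called, with fold changes of 0.848 and 1.47. Ccdc39 and Ccdc40, also called higher, were not clearly higher by the authors' TPM. Ccdc39 had a fold change of 2.08 but a TPM ratio of 1.13, and its groups overlapped in TPM. Ccdc40 averaged 21.4 TPM with DSF and 21.4 TPM with DMSO. For Gas8 and Rsph3a the TPM ratios were 1.57 and 1.43, and the groups did not overlap.

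Markers of ciliated epithelium were mixed beside these lists, some absent or low and some called higher. Sntn was at 0 in every library, Ccdc153 had at most 1 count, and Foxj1, a master factor of motile cilia, ranged from 0.672 to 2.11 CPM with DSF and from 0.0455 to 1.25 CPM with DMSO. Krt8 was not tested, at no more than 0.495 CPM in any library. The 6 markers summed to 369 to 380 CPM with DSF and 300.5 to 322 CPM with DMSO, most of it Tubb4b, a tubulin gene. Tubb4b and Epcam were called higher, Epcam at a mean of 8.76 CPM with DSF and 6.94 CPM with DMSO.

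The list of genes known as RFX7 targets in human cells held 16 genes. Of these Tp53inp1 was not found by that symbol and was not analysed. Of the other 15, all tested, 7 (46.7%) were called higher and 2 (13.3%) lower, beside 11.6% and 11.3% of all tested genes. Their median log2 fold change was 0.16 beside -0.0027. Tob1, an antiproliferative gene, held 32.0, 30.3 and 35.5 CPM with DSF and 15.1, 15.4 and 17.0 CPM with DMSO, which do not overlap. Its fold change was 2.06 (edgeR adjusted p = 1.32e-12). Junb, an AP-1 subunit gene, had a fold change of 1.25. The genes called lower were Ddit4 and Sesn3, both inhibitors of the growth regulator mTORC1, with fold changes of 0.780 and 0.816. Pdcd4, Ccng2 and Pik3ip1 were not called, at 1.07, 0.936 and 0.931. Both directions thus stood within the list, while Rfx7 itself had a fold change of 0.972. Of the list genes named, exons of Nlrc5, H2-DMa, Ccdc114, Rsph3a, Rsph3b, Junb and Pik3ip1 overlap a gene on the opposite strand. Those of Ep300, Smarca4 and Cd74 overlap one on the same strand, and those of Dnaaf2 both. Counts of these genes may hold reads of the neighbour. Ift80, Ift88, Dync2h1, Wdr19, Ccdc39 and Ccdc40 are left out of this comparison of exons.

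**Figure D4:**
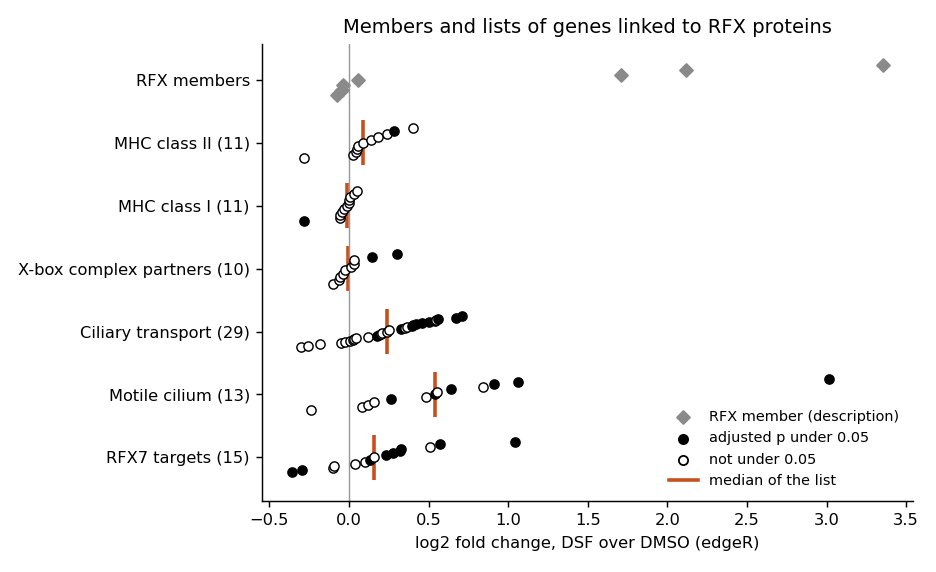
Log2 fold changes, DSF over DMSO, of the 7 members (grey diamonds, a description) and of the tested genes of 6 lists, filled where the adjusted p was under 0.05, with the list's median in orange. The medians stand at 0.24 for ciliary transport and 0.54 for the motile cilium, at 0.09 for class II and at -0.02 for class I genes.

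In the authors' deposited table the 12 transport genes called higher had a median log2 fold change of 0.44 in DF over DO, -0.37 in DC over DF and 0.03 in DC over DO. In the authors' deposited table all 12 were below 0 in DC over DF, and 6 of them above 0 in DC over DO. They were picked on the first of these comparisons, and all share groups.

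The full X-box was searched as GTTNCC followed by GGNAAC with 0 to 3 bases between, a pattern that reads the same on both strands, in the windows of 250 bases before to 50 after the start. It was found in 264 of 32851 windows (0.804%) and in no member's window. Of 102 tested genes with such a pair, 29 (28.4%) were called higher and 7 (6.86%) lower with DSF, beside 12.6% and 12.1% of the 10140 tested genes that have a window. Their median log2 fold change was 0.09. Some pairs lie in the windows of 2 neighbouring genes, as for Sppl2b and Lsm7, and count for both. The 102 genes thus do not each have a pair of their own. The 1428 genes with the single half-site GTTGCC and no pair stood at 15.0% higher and 10.2% lower, and the 8610 genes with neither at 12% higher and 12.5% lower. A match is a description of letters and not a bound site, and these shares were given no test.

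The pairs of the 8 genes with the smallest p among these 102 are shown to let the repeat be seen, with the half-sites in capitals and the bases between them in lower case. They were chosen after their values were seen.
AI467606: GTTGCCttGGAAAC
Etfbkmt: GTTGCCttGGGAAC
Mapkbp1: GTTACCatGGGAAC
Fam110a: GTTGCCtGGCAAC
Map9: GTTTCCtaGGTAAC
Lztfl1: GTTGCCattGGCAAC
Tmx4: GTTGCCttgGGAAAC
Tctn1: GTTGCCcgGGCAAC
The pairs lie in windows on chromosomes 7, 6, 2, 2, 3, 9, 2 and 5 in the order shown. That of AI467606 is chr7:127091272-127091285, that of Etfbkmt chr6:149141441-149141454 and that of Mapkbp1 chr2:119972691-119972704, all on the plus strand. Lztfl1 holds a further pair in the same window, and its pair above begins 164 bases before the start.

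All 8 were higher with DSF, but the next gene by p, Grwd1, was lower. The edgeR adjusted p was 4.64e-07 for Tctn1 and 4.68e-07 for Grwd1. The shared direction of the 8 thus depends on where the list was ended, which no rule had fixed. Etfbkmt, which encodes a mitochondrial lysine methyltransferase, averaged 26.2 ± 1.08 CPM with DSF and 7.60 ± 0.81 CPM with DMSO (SD, n = 3 each), a fold change of 3.46. Map9, a gene for a microtubule-associated protein, had a fold change of 2.50, Fam110a one of 2.04, Mapkbp1 one of 2.01 and AI467606 one of 2.00. Lztfl1, which encodes a regulator of BBSome traffic, had 1.63, Tctn1, of the transition zone at the base of the cilium, 1.51, and Tmx4 1.51. Of other cilium genes with a pair, named after their values were seen, Ttc26, a transport complex B gene outside the list, had 1.63 and Cfap298 1.33, and both were called. Tctn3, of the transition zone, was called at 1.26, and that call was lost with DESeq2 and without any of DSF replicates 2 and 3 and DMSO replicates 2 and 3. The pair of Tctn3 begins 140 bases before its start. The same pair begins 7 bases before the start of Entpd1, which was not called, at 0.891. Ahi1, Mks1 and Cep41 were not called, with fold changes of 1.18, 1.07 and 1.03. Grwd1, a ribosome assembly factor gene, was the called gene with a pair and the smallest p among those that were lower, at 0.713. Of the transport list, Ift57 and Bbs7 held a pair, and neither was called. Among the called genes named here, exons of Mapkbp1, Lztfl1, Tctn1, Cfap298 and Grwd1 overlap a gene on the opposite strand, so their counts may hold its reads.

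The single half-site GTTGCC was in 11 of 25 transport genes with a window, 12 of 25 motile genes and 1 of 13 RFX7 targets, against 14.8% of all tested genes with a window and 12.5% of all windows. The 25 motile genes include genes that were not tested. It was in 2 of 8 class II genes, 3 of 10 class I genes and 0 of 9 partners.

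**Figure D5:**
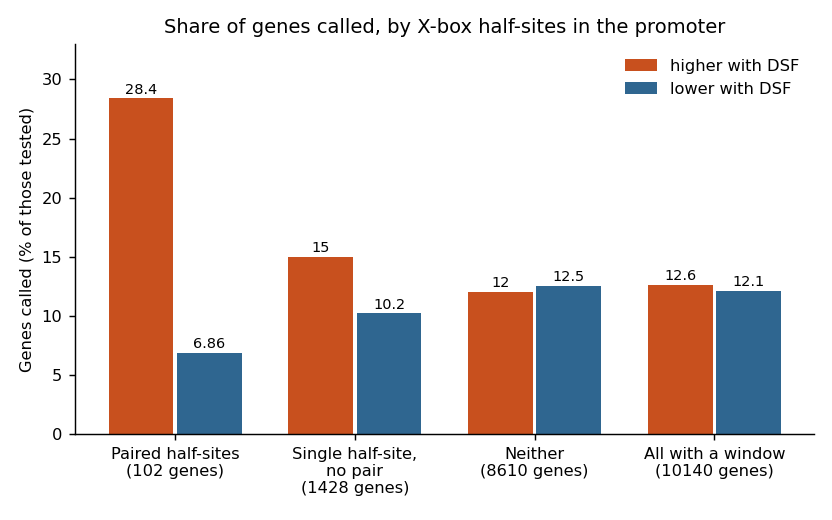
Percent of tested genes called higher (orange) or lower (blue) with DSF at an adjusted p under 0.05, by the X-box half-sites in the promoter window, from 0 on the axis. Genes with paired half-sites stand at 28.4% higher and 6.86% lower, and all tested genes with a window at 12.6% and 12.1%.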

How the data were processed

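Libraries of 3 DSF and 3 DMSO samples of OT-I T cells were prepared from 1 µg of RNA with the SMARTER kit for mRNA, per the labels' protocols. Per the submitters' processing notes the genome was GRCm38 (mm10). Which aligner, counter and strand setting were used: not given in the sources used here. Deposited tables hold estimated counts per gene and library, not normalised, TPM per library and group, a gene length of unstated kind, and the authors' log2 fold changes with p-values, per the file headers. The deposited mean TPM headed DO and DF equal the means of the A and B columns in all 55536 genes within 0.0001 TPM, and those codes were taken to mean DMSO and DSF, although no label spells them out. No column of library values was left unused.

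Estimated counts were rounded to whole numbers, filtered with filterByExpr, which left 14318 genes, scaled by TMM (factors 0.9952 to 1.005) and tested with glmQLFit (robust) and glmQLFTest of edgeR 4.0.16 under R 4.3.3 on a design with group alone. Calls are at a Benjamini-Hochberg adjusted p under 0.05 over all genes tested. An SE is the size of the log2 fold change divided by the root of F. Fold changes are fitted values. The 3 counts of the floor and the intervals on the members carry no correction for reads that are not independent molecules. Replicate libraries differed by more than counting error (chi-square per degree of freedom 1.95 to 4.23). The fit was tested on simulated data before use.

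The members and lists were chosen with earlier results of these data known. The text names all members, Rfx4, Rfx6 and Rfx8, of each list up to 4 called genes with the smallest p and up to 3 uncalled genes with the highest mean CPM, and the 5 genes most like Rfx2 and Rfx3, predicted genes left out. Other names were chosen after their values were seen. For likeness, 0.1 CPM was added before log2. Alternatives were DESeq2 1.42.0, RLE scaling, no filter, the replicate number as a term, TPM ratios and leaving out each library. Promoters came from RefSeq (GRCm38.p6), for 6 of the 7 members, and positions from GENCODE M21, in which 55450 of 55536 deposited identifiers were found.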

Additional observations from a re-analysis of the deposited data

How the results depend on the processing

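The log2 fold changes of Rfx1, Rfx2 and Rfx3 ran from 1.66 to 1.74, 3.25 to 3.51 and 2.08 to 2.17 when each library was left out in turn. Those of Rfx5 ran from -0.08 to -0.0026, of Rfx7 from -0.07 to 0.0017, of Rfxap from -0.10 to -0.05 and of Rfxank from -0.02 to 0.14. By TPM ratio Rfx5 stood at 0.15 and Rfxap at 0.11, above 0 where the counts put them below it. DESeq2 called 0 class II genes, 1 partner and 6 transport genes, and with each library left out edgeR called 0 to 1, 1 to 2 and 7 to 12 of them. Over all genes edgeR called 2565 to 2972 with a library left out, and DESeq2 2336. Of motile genes DESeq2 called 4, and with each library left out edgeR called 4 to 7. Without DSF replicate 2, edgeR called 1 motile gene lower. Of RFX7 targets DESeq2 called 8, and with each library left out edgeR called 7 to 9. Of the 102 genes with paired half-sites DESeq2 called 21 (20.6%) higher. With each library left out edgeR called 22 to 28 of them (21.6% to 27.5%) higher. Requiring exactly 2 bases between paired half-sites, chosen after seeing the data, left 61 genes, of which 17 (27.9%) were called higher. With the replicate block, 3829 genes were called over the table, and the counts of the 6 lists stayed the same. Same-numbered libraries correlated at 0.035 to 0.055 in their deviations from the group means, and libraries of different numbers at 0.0041 or less. Each library thus correlated best with its own number, though weakly. Whether the numbers pair the samples by design is not given in the labels and was not tested. For the genes named from the lists by p or mean CPM and those called with a pair, settings kept a call in 468 cases and ended it in 51. They left uncalled genes uncalled in 177 and made a call in 3, and the causes were not tested. Those 3 were Pdcd4, higher with the replicate block, Rsph9, higher without DMSO replicate 1, and Dnaaf2, lower without DSF replicate 2. Rfx2 in DMSO rests on 24 to 41 counts, and its log2 TPM ratio was 3.52.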
